A study of Coryphaena hippurus with 32 samples.

Results

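Ion channel and sodium pump genes were followed in the mahi-mahi, Coryphaena hippurus, an open-ocean predator whose embryos were exposed to Deepwater Horizon oil. The genes were chosen by symbol alone: pore-forming and auxiliary subunits of calcium, potassium and sodium channels, the hyperpolarization-activated HCN channels, and the alpha and beta subunits of the sodium pump. This gave 123 of 12520 gene identifiers with a symbol, of which 26 were calcium channel genes, 81 potassium channel genes, 8 sodium channel genes, 3 HCN genes and 5 sodium pump genes. The symbol pattern also takes in potassium channels that are not opened by voltage, such as the inward rectifiers (KCNJ) and the background channels with tandem pores (KCNK).

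Embryos from spawns of wild-caught broodstock were kept at 27 °C in still seawater that was not renewed. Slick groups and source groups were sampled at 24, 48 and 96 h post fertilization (hpf). Both received dispersed oil, taken from the sea surface for slick and from the well for source, at a labelled 1 g/l, and controls of the same stages received none (0 g/l). Each sample pooled RNA of many whole animals, so fewer cells of a type and less RNA per cell cannot be told apart, and neither can a change in 1 organ be told from one throughout the body. No measured hydrocarbon level entered the analysis, so between slick and source the kind of oil and its dose cannot be told apart.

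Voltage-gated calcium channels let calcium into nerve, muscle and gland cells when the membrane depolarizes, and start transmitter release and contraction. Potassium channels bring the membrane back to rest, sodium channels carry the upstroke of the action potential, and HCN channels carry a pacemaker current. The sodium pump uses ATP to move sodium out and potassium in, which maintains the gradients all of these channels use, and in marine fish it also powers salt secretion by the ionocytes of skin and gills.

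The 32 deposited samples gave 27 libraries, 3 in each of 9 groups, because 5 pairs of controls showed no difference detectable beyond sampling noise and were each counted as 1 sample (chi-square per degree of freedom 0.968 to 1.03, lowest p = 0.0199 against a limit of 0.001). A sample held 5425111 to 8884058 counts over all lines of the table and 1823729 to 2560303 over the 1 line kept per gene. At 48 hpf the slick library of replicate 4 stood apart from replicates 5 and 6 (chi-square per degree of freedom 2.82 and 3.03, against 1.33 between those 2). Levels are CPM (counts scaled to the library total) of kept lines after trimmed-mean scaling, given as mean ± SD with n = 3. No gene length was used, so each gene is compared with itself and not with other genes. A gene is called at an adjusted p below 0.05 (quasi-likelihood test of edgeR, Benjamini-Hochberg over every tested gene), and folds are those of that fit. Of the 123 genes, 2 had no line (KCNJ18, KCNT2), 4 had a count of 0 throughout, KCNE4, SCN2B and SCN3B among them, and 117 had a count. The low-count filter left 55, 75 and 89 of them for testing at 24, 48 and 96 hpf and 94 in the fit over all stages, while 23 with a count were never tested. A gene at 0 in the shallowest library may still have been present at up to 1.64 CPM, the level of 3 counts there.

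Control animals built up most of these genes along development. Between 24 and 48 hpf 38 of the 94 rose and 14 fell (all genes: 47.9% called, 25% higher and 22.9% lower), and between 48 and 96 hpf 77 rose and 4 fell (all genes: 62.3% called, 34.9% higher and 27.4% lower). The median log2 change was 0.63 in the first step and 1.28 in the second, against 0.02 and 0.05 over all genes tested. Of the 94, only 55 passed the low-count filter at 24 hpf, 22 passed first at 48 hpf and 17 first at 96 hpf. Genes that passed only at a later stage were taken in where they are high, so part of the rise was fixed by the filter. Of all genes 7757 passed at 24 hpf and 8891 over all stages, so the shares are not compared on equal terms. In the second step 9 of 10 calcium channel pores, all 6 tested auxiliary subunits of voltage-gated potassium channels, all 3 tested sodium channels, all 3 HCN channels and all 5 pump subunits rose. The commonest course was no call and then a rise (38 genes), followed by 2 successive rises (31 genes) and by a fall and then a rise (8 genes).

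**Figure D1:**
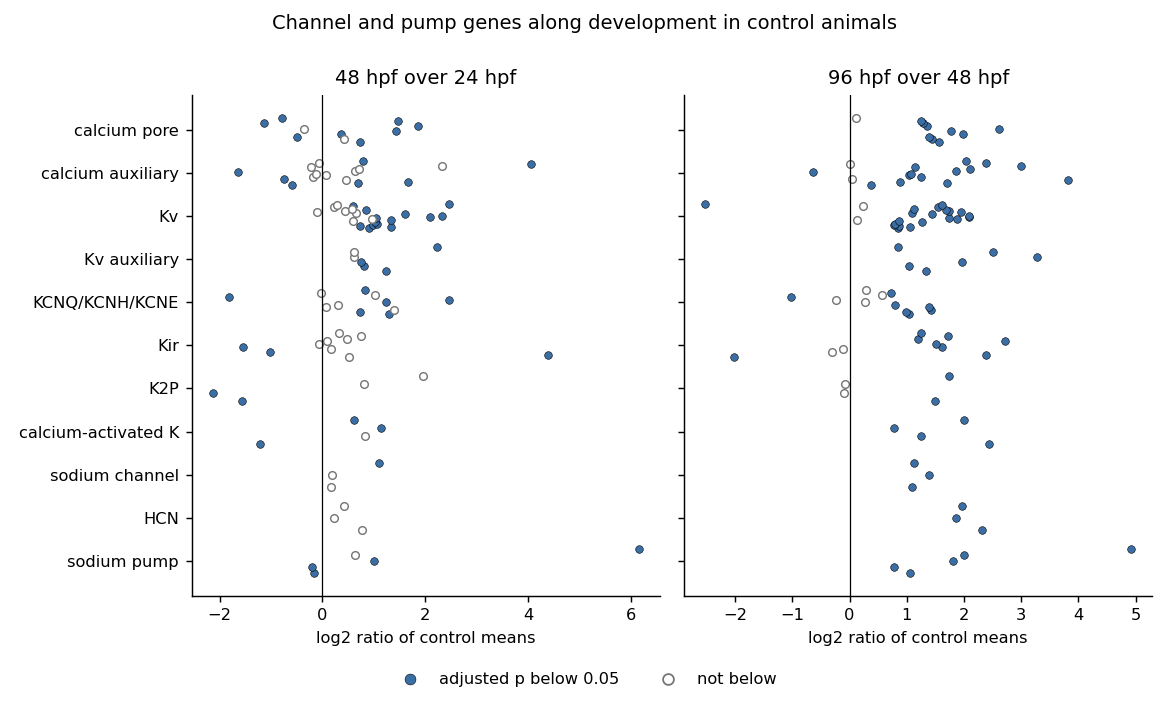
Log2 ratios of control means between successive stages for the 94 tested genes, 1 point per gene, in rows by family; filled points are called and open points are not. The left panel is 48 hpf over 24 hpf, where 38 genes rose and 14 fell, and the right panel is 96 hpf over 48 hpf, where 77 rose and 4 fell.

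The neuronal delayed rectifiers of the KCNC family, which let neurons fire fast, rose in both steps. KCNC1 averaged 4.89, 21.3 and 90.7 CPM at 24, 48 and 96 hpf, and KCNC2 2.28, 11.7 and 49.2 CPM. SCN8A, a sodium channel of nerve axons, stood at 66.5 ± 6.1, 143 ± 2.7 and 311 CPM in the same order. KCNIP1, a calcium-sensing partner of KCND channels, was the steepest of the auxiliary potassium channel subunits in the second step (9.74-fold). CACNA1F, the L-type pore of photoreceptor terminals, reached 29.9 ± 3.9 CPM at 96 hpf after 6.36 and 5.01 CPM at 24 and 48 hpf. Its auxiliary subunit in photoreceptors, CACNA2D4, was near the floor at both early stages (0.36 and 0.51 CPM) and reached 7.68 ± 1.7 CPM at 96 hpf. KCNC2 first passed the low-count filter at 48 hpf, and KCNIP1 and CACNA2D4 only at 96 hpf. Part of the rise of these genes was thus fixed by the filter.

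Other genes fell. KCNQ1, a slowly activating potassium channel of heart and epithelia, fell in both steps, with means of 21.8, 6.13 and 3.09 CPM. CACNG1, the gamma subunit of the skeletal muscle calcium channel, fell in both as well, with 131, 42.2 and 28.4 CPM, although its control libraries at 48 and 96 hpf overlapped. KCNS3, a silent subunit that modifies other potassium channels, peaked at 48 hpf (1.42, 8.05 and 1.51 CPM), and KCNJ1, a potassium channel of salt-transporting kidney cells, fell between 48 and 96 hpf (8.65 ± 0.19 and 2.2 ± 1.1 CPM). KCNMA1, the large-conductance calcium-activated potassium channel, dipped and then rose, with 60.3 ± 2.9, 26.1 ± 3.5 and 141 ± 10 CPM. KCNJ2, an inward rectifier of heart and skeletal muscle, did the same (7.4, 2.53 and 7.98 CPM). KCNS3 passed the low-count filter only at 48 hpf, KCNQ1 and KCNJ1 only at 24 and 48 hpf, and KCNJ2 only at 24 and 96 hpf. Part of the course of these genes was thus fixed by the filter.

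The T-type calcium channels, which open at small depolarizations, took different courses. CACNA1G rose in both steps (1.98, 7.24 and 17.8 CPM), whereas CACNA1H fell and then rose (27.4, 12.4 and 30.6 CPM). Among background potassium channels KCNK3 fell between 24 and 48 hpf (5.39 and 1.17 CPM) and KCNK6 rose between 48 and 96 hpf (1.51 and 5.28 CPM). KCNH8 and KCNH3, both of the ether-a-go-go family, were the steepest risers of the KCNQ, KCNH and KCNE genes in the first step (5.54-fold) and in the second (2.68-fold). KCNJ4 rose 6.57-fold in the second step and KCNIP4 4.67-fold in the first. KCNN2, a small-conductance calcium-activated channel, was called higher at 48 than at 24 hpf (4.38 and 1.95 CPM), but its libraries overlapped. That call was lost without control replicates 1 or 3 of 24 hpf or 4-5 or 6-7 of 48 hpf (adjusted p up to 0.217). CACNA1G, KCNH8, KCNIP4 and KCNN2 first passed the low-count filter at 48 hpf. KCNH3, KCNJ4 and KCNK6 passed it only at 96 hpf, and KCNK3 only at 24 hpf. Part of the change of these genes was thus fixed by the filter.

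Against controls, few of these genes were called in slick at the early stages and more at 96 hpf, as over all genes. At 24 hpf 1 of 55 was called, higher (all genes: 0.58% called, 0.309% higher). At 48 hpf 4 of 75 were higher and 2 lower (all genes: 3.26% called, 1.42% higher and 1.84% lower), and at 96 hpf 2 of 89 were higher and 15 lower (all genes: 21.3% called). The share lower at 96 hpf was 16.9%, against 10.4% of all genes, and the share higher was 2.25%, against 10.9%. The median log2 change of the 89 genes was -0.10, against 0.01 over all genes. Libraries of the slick and control groups did not overlap at 96 hpf in 28 genes lower in slick (31.5% of those tested, against 20% of all genes) and in 4 genes higher in slick (4.49%, against 14.1% of all genes).

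Fewer genes were called in source, and at 48 and 96 hpf the shares were near those of all genes. At 24 hpf none of 55 genes was called by edgeR (all genes: 1.69% called, 0.993% higher). At an unadjusted p below 0.05 in edgeR were 10 of the 55 (all genes: 925 of 7757). DESeq2 called none and gave an adjusted p for only 1 of these genes. At 48 hpf 1 of 75 was higher (all genes: 1.33% called, 0.671% higher) and at 96 hpf 1 of 89 was lower (all genes: 1.11% called, 0.518% higher and 0.588% lower). Slick set directly against source gave 1 higher gene of 55 at 24 hpf (all genes: 0.219% called, 0.0387% higher). At 96 hpf it gave 1 higher (KCNJ10) and 8 lower of 89 (all genes: 13.5% called, 7% higher and 6.47% lower). The 8 were ATP1B1, ATP1B2, CACNA1A, CACNA1D, CACNG3, KCNIP3, KCNK5 and KCNMA1, and DESeq2 called only ATP1B1 of them. At 48 hpf that comparison gave none of 75 by edgeR (all genes: 0.696% called, 0.423% higher), with 7 at an unadjusted p below 0.05 (all genes: 805 of 8042). DESeq2 called none there, but gave an adjusted p for only 9 of these genes. The 2 oils share their controls, so their results against control are not independent of each other.

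Calcium channel pores held the largest group of calls in slick at 96 hpf, where 5 of 10 fell and none rose (all genes: 10.4% lower and 10.9% higher). CACNA1S, the voltage sensor for contraction in skeletal muscle, had 94.8, 96.3 and 89.3 CPM in slick larvae and 104, 109 and 103 CPM in source larvae, against 140, 136 and 126 CPM in controls. Neither oil overlapped with controls: the fold was 0.712 in slick (adjusted p = 1.52e-07) and 0.787 in source (adjusted p = 0.00335), and all 6 oil libraries were lower than every control. Slick stood at 0.904-fold of source (95% interval 0.801 to 1.02, not called). The source call was lost without control replicate 10-11 (adjusted p = 0.0855) and with the lines of the gene summed. In controls CACNA1S fell between 24 and 48 hpf (216 and 125 CPM) and was not called between 48 and 96 hpf, so this was 1 of the 2 genes lower in slick at 96 hpf that had not risen in controls in that step.

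CACNA1D, an L-type pore of neurons, endocrine cells and pacemaker cells, was higher in both oils at 48 hpf and lower in slick at 96 hpf. At 48 hpf it had 43.4, 48.4 and 49.3 CPM in slick and 62.1, 51.5 and 50.9 CPM in source, against 32, 32.1 and 36.5 CPM in controls. Slick stood at 1.4 times control (adjusted p = 0.00599) and source at 1.64 times (adjusted p = 9.73e-05). At 96 hpf it had 107, 100.4 and 109 CPM in slick and 135, 123 and 134 CPM in source, against 137, 137 and 118 CPM in controls. Slick larvae were lower than controls at that stage (0.818-fold, adjusted p = 0.0027), whereas source larvae overlapped with them (0.992-fold, 95% interval 0.895 to 1.1). The effect of oil differed between 48 and 96 hpf in slick (log2 difference -0.81 ± 0.15 SE, adjusted p = 1.19e-05) and in source (-0.74 ± 0.14 SE, adjusted p = 0.000753). DESeq2 did not call the rise in slick at 48 hpf, and without slick replicate 6 its adjusted p was 0.0512.

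The presynaptic pores CACNA1A and CACNA1B, which trigger transmitter release, also fell in slick at 96 hpf. CACNA1A had 129, 110 and 124 CPM in slick, against 169, 146 and 142 CPM in controls (0.809-fold, adjusted p = 0.00117). CACNA1B had 33.6, 31.2 and 35 CPM in slick, against 50.7, 46.1 and 43.7 CPM in controls (0.723-fold, adjusted p = 0.00181). Slick libraries were below every control library in both genes. CACNA1C, the L-type pore of heart and smooth muscle, was called at 0.815-fold (adjusted p = 0.0484), but its groups overlapped, with 39.6, 39 and 49.4 CPM in slick and 58.1, 54.4 and 46 CPM in controls. CACNA1A was not called without control replicate 10-11 (adjusted p = 0.0715), and CACNA1C was not called without either of 2 control libraries (10-11, 12-13) or either of 2 slick libraries (7, 8), with an adjusted p of up to 0.25. The other 5 pores were not called, at 0.842-fold for CACNA1G to 1.03-fold for CACNA1E.

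Among the 16 auxiliary calcium channel subunits, 2 alpha-2-delta genes, whose products carry the pore to the membrane, rose in slick at 48 hpf (all genes: 1.42% higher). Not all 16 were tested at 48 hpf, since CACNA2D4, CACNG3, CACNG4, CACNG5 and CACNG7 did not pass the low-count filter. CACNA2D3 had 95.6, 83.6 and 112 CPM in slick, against 63.2, 72.1 and 73.7 CPM in controls, without overlap (1.39-fold, adjusted p = 0.000245). CACNA2D1 was at 1.32-fold (adjusted p = 0.0329), a call that DESeq2 did not make and that was lost without control replicates 4-5 or 8-9 or slick replicates 4 or 6 (adjusted p up to 0.317). Neither was called at 96 hpf (CACNA2D3 at 1.05-fold, CACNA2D1 at 1.11-fold). All 16 were tested there, and 2 were called, both gamma subunits and both lower, a share near that of all genes (10.4% lower). CACNG3 had 10.6, 9.63 and 6.13 CPM in slick, against 18, 16.6 and 14 CPM in controls, without overlap (0.544-fold, adjusted p = 0.00105), and CACNG8 was at 0.826-fold (adjusted p = 0.0282). CACNG8 lost its call without control replicate 14 or slick replicates 8 or 9 (adjusted p up to 0.157).

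**Figure D2:**
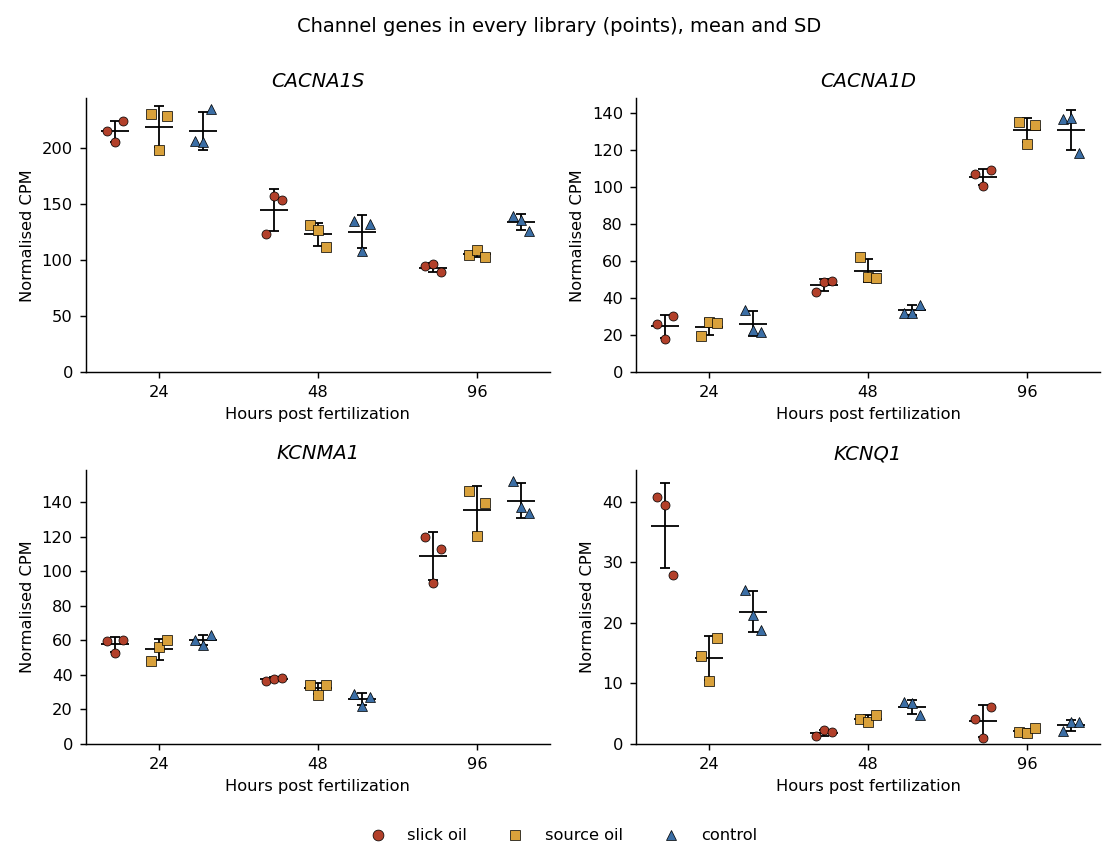
Normalised CPM of 4 channel genes in every library at 24, 48 and 96 hpf, with slick (circles), source (squares) and control (triangles) side by side and the mean ± SD of each group as black bars. In CACNA1S at 96 hpf all 6 oil libraries lie below the 3 controls, in CACNA1D and KCNMA1 slick lies above control at 48 hpf and below it at 96 hpf, and in KCNQ1 slick lies above control at 24 hpf and below it at 48 hpf.

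KCNMA1, which links calcium entry to repolarization, followed the same pattern as CACNA1D in slick. It had 36.6, 37.8 and 38.3 CPM in slick at 48 hpf, against 28.8, 22.2 and 27.4 CPM in controls (1.44-fold, adjusted p = 0.00882). At 96 hpf it had 120, 93.1 and 113 CPM in slick, against 152, 137 and 133 CPM in controls (0.787-fold, adjusted p = 0.00031). The groups did not overlap at either stage, and the effect of slick differed between the stages (log2 difference -0.91 ± 0.15 SE, adjusted p = 3.04e-06). In source it was not called at any stage (0.91, 1.23 and 0.961-fold at 24, 48 and 96 hpf). The rise at 48 hpf was not called by DESeq2 or without control replicate 6-7 (adjusted p = 0.102).

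KCNT1, a sodium-activated potassium channel of neurons, fell in slick at 96 hpf, with 32.2, 33.5 and 33.7 CPM against 50.3, 45.4 and 49.1 CPM in controls (0.708-fold, adjusted p = 0.000811). KCNC2 fell to a like extent, with 37.3, 32.1 and 34.1 CPM in slick against 51.6, 51.7 and 44.2 CPM in controls (0.71-fold, adjusted p = 0.000663). Neither gene's groups overlapped, and source larvae lay between them in mean (42 and 41.1 CPM for KCNT1 and KCNC2) without a call. KCNC2 was the 1 gene called among 21 tested voltage-gated pore genes outside the KCNQ and KCNH families (all genes: 21.3% called).

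Of 6 tested auxiliary subunits of voltage-gated potassium channels, 3 fell in slick at 96 hpf (all genes: 10.4% lower). All 6 had log2 changes below 0, against a median of 0.01 over all genes. KCNAB3, a beta subunit, had 21.2, 23.4 and 26.3 CPM in slick, against 33, 33.3 and 37.4 CPM in controls (0.713-fold, adjusted p = 0.00629). KCNAB2 was at 0.807-fold (adjusted p = 0.0451) and KCNIP3, a calcium-sensing subunit, at 0.624-fold (adjusted p = 0.031). DESeq2 called none of these 3. KCNAB3 was not called without slick replicate 7 (adjusted p = 0.0591), KCNIP3 not without control replicate 12-13 or slick replicate 7 (up to 0.215), and KCNAB2 not without any 1 of 5 libraries, all but control replicate 14 (up to 0.296).

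KCNJ10 was the potassium channel gene that rose in slick at 96 hpf. It encodes an inward rectifier through which glia take up potassium and which also serves kidney epithelia. Slick larvae had 36.8, 42.2 and 37.6 CPM and source larvae 26, 26.4 and 26.9 CPM, against 27.2, 23.1 and 23.4 CPM in controls. Slick libraries were above all others (1.61-fold against control, adjusted p = 1.78e-05, and 1.5-fold against source, adjusted p = 0.00171), while source overlapped with control at 1.07-fold. The gene was among the steepest risers in controls, with means of 0.18, 4.65 and 24.6 CPM at the 3 stages. It first passed the low-count filter at 48 hpf, so part of that rise was fixed by the filter.

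KCNK5, a background channel of acid- and volume-sensitive epithelia, had the lowest called ratio to control at 96 hpf. It had 2.3, 4.13 and 2.63 CPM in slick, against 5.53, 7.16 and 8.11 CPM in controls (0.464-fold, adjusted p = 0.012), and it was also below source (0.462-fold, adjusted p = 0.0325). These levels rest on few reads, DESeq2 called neither difference, and the first was lost without slick replicate 7 or 9 (adjusted p up to 0.0834). The second was lost without any 1 of 5 libraries, all but slick replicate 8 (up to 0.143).

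**Figure D3:**
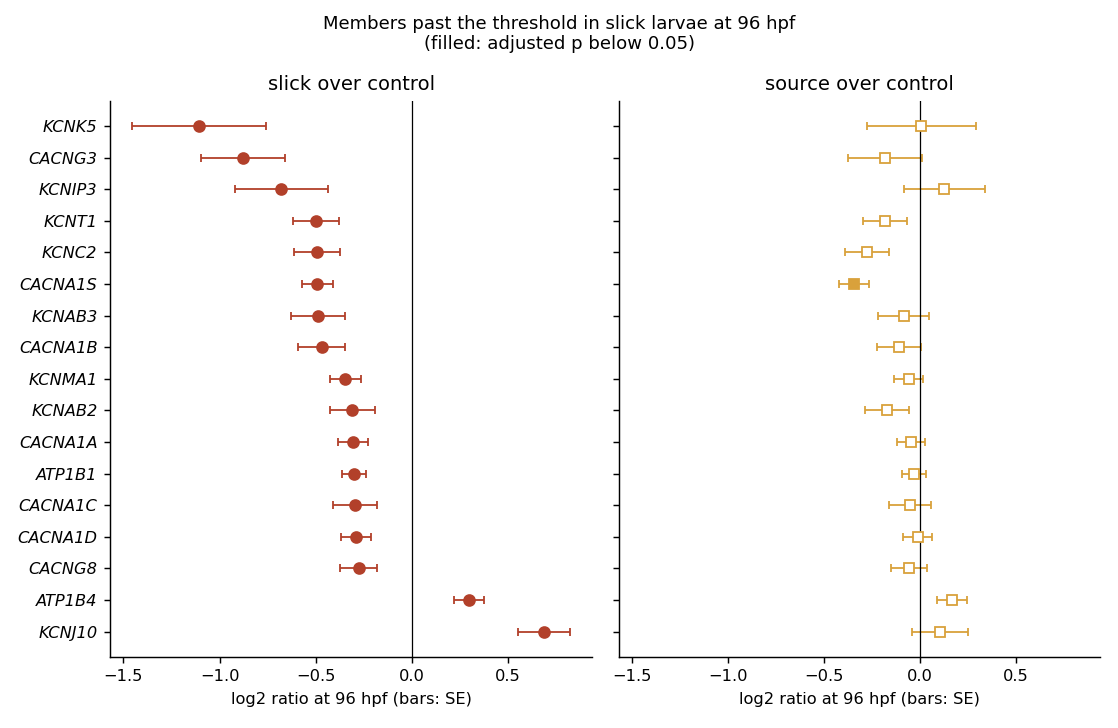
Log2 ratios at 96 hpf, slick over control on the left and source over control on the right, with the standard error as bars, for the 17 genes called in slick; filled symbols are called. Slick values run from -1.11 for KCNK5 to 0.69 for KCNJ10, and in source only CACNA1S is called.

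KCNQ1 moved in opposite directions in slick at 24 and 48 hpf. At 24 hpf it had 40.8, 39.5 and 27.9 CPM in slick and 14.5, 10.4 and 17.6 CPM in source, against 25.5, 21.2 and 18.8 CPM in controls. The 3 groups did not overlap, with slick highest and source lowest. Source was at 0.653-fold of control (95% interval 0.491 to 0.867) without a call (adjusted p = 0.105), whereas the difference between the oils was 2.54-fold (adjusted p = 3.67e-08). At 48 hpf slick libraries were lowest, with 1.26, 2.22 and 1.92 CPM in slick and 4.14, 3.54 and 4.72 CPM in source, against 6.88, 6.75 and 4.78 CPM in controls. The change in the slick effect between these stages was -2.48 on the log2 scale (± 0.44 SE, adjusted p = 0.000177). At 96 hpf the slick libraries spread from 0.92 to 6.13 CPM and the gene was not tested in the fit of that stage. In slick at 24 hpf the call (adjusted p = 0.0122) was lost without control replicates 2 or 3 or slick replicates 1 or 2 (adjusted p up to 0.239) and with the lines summed. At 48 hpf no single library decided it, and DESeq2 did not call it.

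None of the 3 sodium channel pores tested in each stage was called against control by edgeR or by DESeq2. Of all channel and pump genes DESeq2 gave an adjusted p for only 5 in slick at 24 hpf, and for 1 and 5 in source at 24 and 48 hpf. At an unadjusted p below 0.05 were SCN8A in slick and SCN4A and SCN8A in source, all at 48 hpf (all genes: 1110 of 8042 in slick and 1020 of 8042 in source). SCN8A had 303, 279 and 269 CPM in slick at 96 hpf, against 325, 313 and 295 CPM in controls (0.932-fold, 95% interval 0.856 to 1.02). At 48 hpf slick and source libraries both lay above every control (1.1-fold and 1.17-fold, adjusted p = 0.332 and 0.0732). Both oils share these controls, and the share of all genes without such overlap at 48 hpf was not determined. The slick effect on SCN8A differed between 48 and 96 hpf (log2 difference -0.28 ± 0.09 SE, adjusted p = 0.0367), a call lost with 7 of 12 single libraries left out (adjusted p up to 0.134).

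HCN2 and HCN3 lay lower in all slick libraries than in all controls at 96 hpf (all genes: 20% without overlap and lower in slick). Neither was called. HCN2 had 16.1, 21.1 and 17.5 CPM in slick and 31.7, 21.5 and 22.6 CPM in source, against 25.4, 23.3 and 26.1 CPM in controls. Slick was at 0.759-fold for HCN2 (95% interval 0.604 to 0.952, adjusted p = 0.0747) and at 0.81-fold for HCN3 (95% interval 0.613 to 1.07, adjusted p = 0.314). Source overlapped with control in both.

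Channels that shape the cardiac action potential were examined because oil is known to disturb the fish heart. KCNH2, the rapid delayed rectifier, was not called in any oil comparison and had 16.1, 15.6 and 19.3 CPM in slick at 96 hpf, against 21, 16.1 and 22.1 CPM in controls (0.907-fold, 95% interval 0.711 to 1.16). KCNJ2 was at 1.11-fold (95% interval 0.773 to 1.59). Of these intervals that of KCNH2 reaches down to the 0.712-fold of CACNA1S, and that of KCNJ2 does not. KCNE1, the partner of KCNQ1, and HCN4, the main sinus node channel, were not among the symbols. Whole larvae hold far more of other tissues than of heart, and the share of each of these transcripts that comes from the heart was not measured.

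The beta subunits of the sodium pump guide its catalytic subunit to the membrane, and 4 of them were measured. ATP1B1, the widespread beta subunit, was lower in slick at both later stages. At 48 hpf it had 144, 122 and 132 CPM in slick and 149, 158 and 156 CPM in source, against 170, 164 and 171 CPM in controls. At 96 hpf it had 220, 235 and 230 CPM in slick and 273, 304 and 266 CPM in source, against 284, 281 and 305 CPM in controls. Slick was below every control at both stages (0.788-fold, adjusted p = 0.000365, and 0.811-fold, adjusted p = 7.34e-05), and at 96 hpf also below every source library (0.83-fold, adjusted p = 0.00143). Without source replicate 17 the last difference was not called (adjusted p = 0.0549). The second table line of ATP1B1 was called at 96 hpf (log2 change -0.24) but not at 48 hpf (-0.15), and with the lines summed the call at 48 hpf was lost.

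ATP1B4, a muscle-rich beta subunit that serves the pump in fish but not in placental mammals, was at 0 in all 3 control libraries at 24 hpf and reached 3.53 ± 1.5 and 108 ± 3.1 CPM at 48 and 96 hpf. The gene passed the low-count filter only at 96 hpf, so part of that rise was fixed by the filter. At 96 hpf slick had 116, 144 and 130 CPM and source 117, 128 and 118 CPM, against 111, 108 and 105 CPM in controls. All oil libraries were above the controls, and slick was called (1.23-fold, adjusted p = 0.00169), source not (1.12-fold, adjusted p = 0.473). The slick call was lost without slick replicate 8 (adjusted p = 0.0712). ATP1B2, a subunit of glia and neurons, was below source in slick at 96 hpf (0.844-fold, adjusted p = 0.0428), a call lost without any 1 of 5 libraries (adjusted p up to 0.196) and by DESeq2. ATP1B3 was not called against control for either oil (1.04 to 1.16-fold at 48 and 96 hpf).

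**Figure D4:**
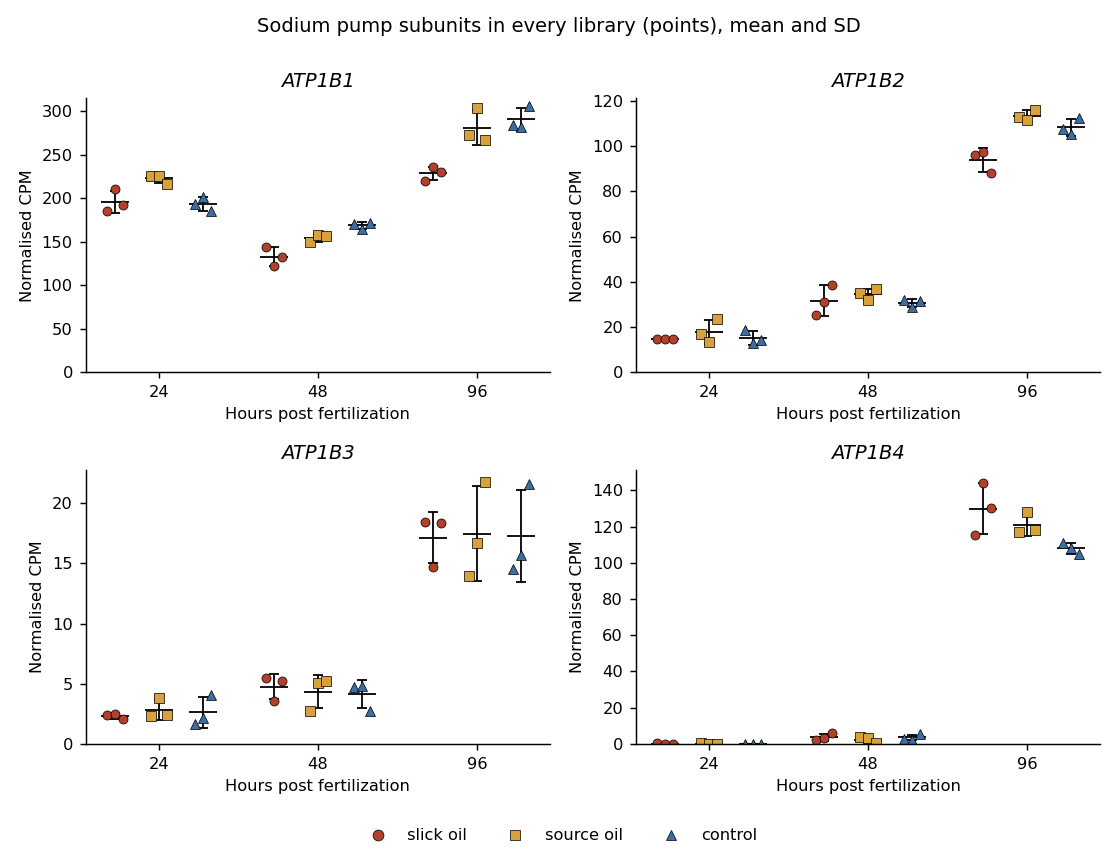
Normalised CPM of 4 sodium pump subunits in every library, drawn as in the plot of channel genes. Slick lies below control in ATP1B1 at 48 and 96 hpf and above it in ATP1B4 at 96 hpf, and ATP1B2 and ATP1B3 are highest at 96 hpf in all 3 groups.

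The genes lower in slick at 96 hpf can be set beside their normal course. Of the 15, 13 had risen between 48 and 96 hpf in controls and none had fallen, while 77 of the 94 genes tested over stages rose in that step. Both comparisons use the same control libraries of 96 hpf, so they are not independent of each other. CACNG3 and KCNIP3 passed the low-count filter only at 96 hpf. The like share among all genes lower in slick was not determined. The slick effect at 96 hpf differed from that at 48 hpf for 8 of the 94 genes, 7 toward lower values (all genes: 11.7% called, 5.08% higher and 6.61% lower). These 7 were CACNA1A, CACNA1D, CACNA1S, CACNA2D3, KCNMA1, KCNT1 and SCN8A, and the 1 toward a higher value was KCNQ1. The effect of slick at 48 hpf differed from that at 24 hpf for KCNQ1 alone of 94, toward a lower value (all genes: 0.686% called, 0.495% lower). For source 1 gene of 94, CACNA1D, differed between 96 and 48 hpf (all genes: 0.652% called, 0.394% lower). None differed between 48 and 24 hpf by edgeR (all genes: 0.146%), with 13 at an unadjusted p below 0.05 (all genes: 705 of 8891). DESeq2 called none there, but gave an adjusted p for only 7 of these genes.

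Related genes outside the symbol pattern were followed as lists. Of all genes, 0.309% were called higher and 0.271% lower in slick at 24 hpf. These shares were 1.42% and 1.84% at 48 hpf and 10.9% and 10.4% at 96 hpf, and 0.993% were higher in source at 24 hpf. Among 6 measured genes that regulate or accompany the pump, SGK2, a serum- and glucocorticoid-regulated kinase, rose in source at 24 hpf (1.42-fold, adjusted p = 0.0253) and in slick at 96 hpf (1.44-fold, adjusted p = 0.000524), and no other was called against control. Of 19 tested salt secretion genes, 1 rose in slick at 24 hpf, 1 fell at 48 hpf and 4 fell at 96 hpf, with no other call in slick against control. The 1 that rose was CA4, a membrane-bound carbonic anhydrase, at 1.27-fold in slick (adjusted p = 0.0446), and it also rose in source at 24 hpf (1.76-fold, adjusted p = 2.04e-13). In slick at 96 hpf CA4 was among the 4 that fell, with 16.1 ± 3 CPM against 27.8 ± 0.66 CPM in controls (0.599-fold, adjusted p = 0.000237). SLC12A2, the sodium, potassium and chloride cotransporter of secretory ionocytes, had 259 ± 11 CPM in slick and 316 ± 7.1 CPM in controls at 48 hpf (0.82-fold, adjusted p = 0.000917). At 96 hpf SLC12A2 was lower in slick (0.891-fold, adjusted p = 0.0355) and in source (0.858-fold, adjusted p = 0.0347, with 0.588% of all genes lower). WNK4, a kinase that controls such cotransporters, was at 0.66-fold at 96 hpf (adjusted p = 0.00349). Of 25 tested channel anchors and modulators, 4 rose in slick at 48 hpf, among them UNC79 of the sodium leak channel complex (1.51-fold) and the scaffold ANK2 (1.23-fold). At 96 hpf 1 of 27 rose and 2 fell, among them UNC79 (0.792-fold, adjusted p = 0.00758). Of 15 other calcium entry and exit genes tested at 96 hpf, 1 rose in slick, the calcium-activated cation channel TRPM4 (1.66-fold, adjusted p = 8.71e-06), and 3 fell, among them TRPC6 (0.551-fold) and the calcium pump ATP2B3 (0.828-fold).

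Marker lists of cell types also held calls in slick at 96 hpf (all genes: 10.9% higher and 10.4% lower). Sums are over all listed markers with a count, tested or not. All 4 tested cone photoreceptor markers fell in slick, with summed levels of 428 to 490 CPM in slick and 874 to 892 CPM in source, against 928 to 1012 CPM in controls. Of 8 listed markers CRX and PDE6H had no line, and 1 other was at 0 in slick and in control larvae at 96 hpf. The channel genes CACNA1F and CACNA2D4 were not called, at 0.97-fold (95% interval 0.801 to 1.18) and 1.41-fold (95% interval 1 to 1.98, adjusted p = 0.154). Channel genes too low for testing, KCNV2 among them, are not covered by this. Of 6 tested neuron markers 1 fell (SYT1, 0.777-fold, adjusted p = 0.0495). Sums of the 7 with a count, 461 to 498 CPM in slick, lay below the 504 to 526 CPM of controls, with STMN2, NEFM and INA without a line. Of 6 tested skeletal muscle markers 4 rose and 1 fell in slick (sums of 37391 to 38409 CPM, against 30376 to 32301 CPM in controls), in the same larvae in which CACNA1S fell. Skeletal muscle markers without a line were ACTA1, RYR1, ACTN3 and PVALB. Of 5 tested heart muscle markers 3 fell, MYL7 furthest (0.237-fold, adjusted p = 3.05e-07), at a low level of 2.26 CPM in slick against 9.66 CPM in controls. The other 2, TNNT2 and MYBPC3, had 11.6 and 58.9 CPM in slick. Sums of the 7 heart markers with a count were 6491 to 7587 CPM in slick, against 7438 to 7871 CPM in controls. They rest mainly on markers that were not called, and NPPA, NPPB and MYH6 had no line. Of 9 tested ionocyte markers 1 rose and 2 fell at 96 hpf (sums of 908 to 971 CPM in slick, against 986 to 1040 CPM in controls). At 48 hpf 2 of these 9 rose in slick, the ammonia channels RHBG (2.51-fold, adjusted p = 5.57e-14) and RHCG (2.99-fold, adjusted p = 3.4e-10), and 1 fell, SLC12A2 (all genes: 1.42% higher and 1.84% lower). RHBG and RHCG also rose in source at 48 hpf (1.6-fold, adjusted p = 0.000437, and 1.72-fold, adjusted p = 0.0222, with 0.671% of all genes higher). What part these cell types have in the channel results was not tested.

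Most of these genes were spread over several lines of the count table, 447 lines for the 117 genes with a count, up to 19 for CACNA1A. Line by line most other lines of the called genes had the sign of the kept line, but lines of a gene are not independent measurements. All 18 other tested lines of CACNA1A and all 4 of CACNA1B were called lower in slick at 96 hpf, as were 11 of 14 of KCNMA1 and 8 of 16 of CACNA1D. For CACNA1S 5 of 9 were called lower and 1 had a log2 change of 0.27. For CACNA1C 2 of 9 other lines were called lower, and for CACNG8 0 of 5. Of 2 other tested lines of KCNAB3, 1 was called lower and 1 had a log2 change of 0.10. Over all genes 3596 of 18670 tested lines were called in slick at 96 hpf, in either direction. The kept lines of CACNA1C and KCNAB2 were not called when all lines were tested one by one (adjusted p = 0.0755 and 0.0712).

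A minority of lines under 1 symbol followed a course of their own. Of 272 other lines with at least 270 counts, in 62 genes, 212 differed from the kept line by less than independent counting would give, so lines of a gene are not independent measurements. In 18 lines of 7 genes the change along development departed from that of the kept line by more than 1 on the log2 scale. CACNA1H was 1 of these genes: in controls its kept line averaged 27.4, 12.4 and 30.6 CPM at 24, 48 and 96 hpf, whereas the log2 changes of its sixth line were -0.37 in the first step and 1.60 in the second. CACNG6, a gamma subunit, first passed the low-count filter at 48 hpf. Its kept line rose 16.7-fold between 24 and 48 hpf, whereas its second line had a log2 change of -1.02. ATP1B2, CACNA1D, CACNA1I and KCNG4 also held such lines. Between genes, 11 pairs of lines were close to proportional in all libraries (chi-square per degree of freedom under 0.3), among them pairs within KCNA1, KCNA2 and KCNA3 and between CACNB2 and CACNB4. Values for these paralogs are uncertain, since no source used here says how reads were divided between similar genes.

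**Figure D5:**
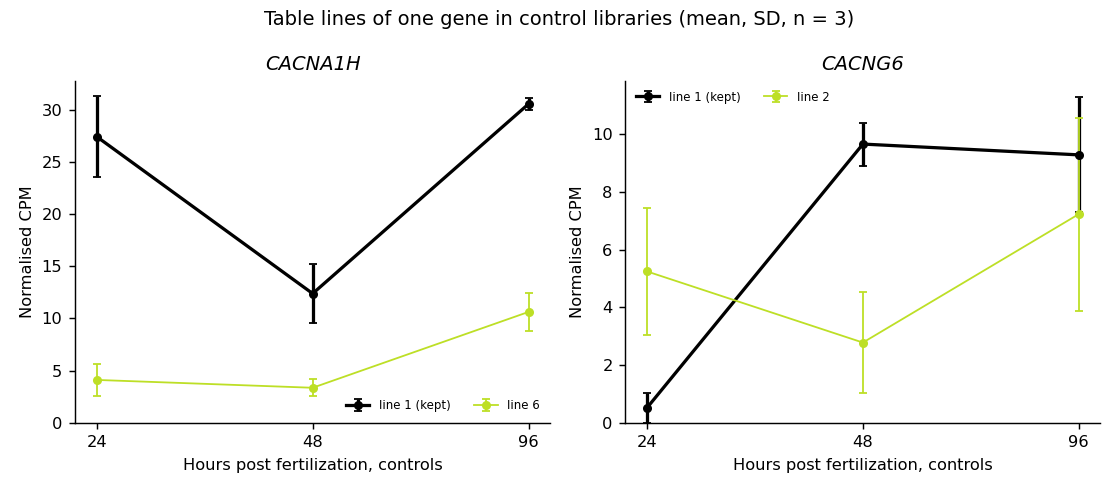
Mean ± SD (n = 3) of normalised CPM in control libraries at 24, 48 and 96 hpf for the kept line and 1 further line of CACNA1H (left) and CACNG6 (right). The kept line of CACNA1H dips at 48 hpf and returns at 96 hpf while its sixth line is highest at 96 hpf, and the kept line of CACNG6 rises at 48 hpf while its second line is lower there.

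The authors' deposited tables, in which 123 of these genes were listed, gave an adjusted p below 0.05 for 11 genes in slick at 96 hpf, 3 in slick at 48 hpf, 4 in source at 48 hpf and 1 in source at 96 hpf. Any adjusted p was present for only 85, 22, 6 and 13 of them, in the same order. At 24 hpf it was present for 3 in each oil, with none below 0.05. In the authors' deposited table for slick at 96 hpf, CACNG2, a gamma subunit, had a log2 change of -0.51 (adjusted p = 0.0291), whereas its kept line was not called here (0.773-fold, adjusted p = 0.125). In the authors' deposited table for source at 48 hpf, 3 of the 4 were higher: CACNA1A (0.29), CACNA2D3 (0.26) and SCN8A (0.21). None of these 3 was called here. The other gene was lower in that table, so the rise of CACNA1D called here was not among the 4.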

How the data were processed

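Per the labels, TruSeq libraries of RNA from pooled whole embryos or larvae were read on a HiSeq2500. The deposited table holds whole-number counts per line, keyed to human gene identifiers and not normalised. The submitters' processing notes name hg19 (a human build), HTSeq and DESeq2 with no version or role. No source used here says how fish reads were tied to human genes. Per the file headers, the authors' comparison tables hold a mean of normalised counts (a signal), the log2 fold change and its error, a Wald score, and p-values before and after adjustment.

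From the counts, each identifier was represented by its line of highest total (42538 lines, 12653 identifiers). For these genes its mean had a median ratio of 1.00 to the deposited mean, but lay over 1.5-fold from it in 80 of 357 values, in 29 genes. Lines without an identifier (332, at most 0.043% of counts) were left out. Samples of a group whose counts did not differ (chi-square over genes with at least 20 counts, p threshold 0.001) were summed: 5 of 46 pairs.

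Tests used edgeR 4.0.16 in R 4.3.3 (trimmed-mean scaling, filterByExpr, quasi-likelihood F-test, two-sided, Benjamini-Hochberg over all tested genes), within a stage over 9 libraries (6 residual degrees of freedom) or over all 27 (18 degrees) for development and interactions. Biological coefficients of variation were 3.82, 4.30 and 4.14% at 24, 48 and 96 hpf and 4.12% over all. The fitting code was checked on simulated data. DESeq2 1.42.0 was an alternative, and it withheld an adjusted p from many low genes. Members, gene lists and tests were chosen with earlier results of these data known. Named are genes called in any oil comparison, the steepest called genes of each family per stage step, a fixed set of cardiac channels and pump subunits, and the called list genes with the lowest p. KCNC1, HCN2, HCN3, ATP1B3, CACNG2 and the paralogs with near-proportional lines were added after their values were seen. Some genes that the rule takes in are counted but not reported here. No label ties replicates to separate spawns, and p-values therefore reflect only how far these samples spread, which may be technical.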

Additional observations from a re-analysis of the deposited data

Results flagged for a closer look

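The effect of oil differed between stages, by the interaction test of edgeR, for 9 results in slick and 1 in source. For KCNQ1 the slick effect at 48 hpf was 2.48 log2 units below that at 24 hpf (interaction -2.48), and at 96 hpf it was 2.08 above that at 48 hpf. The second of these was lost without slick replicate 9 of 96 hpf (adjusted p = 0.174) and rests on libraries between 0.92 and 6.13 CPM.

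Between 48 and 96 hpf the slick interaction was -0.91 for KCNMA1, -0.81 for CACNA1D, -0.74 for CACNA1S, -0.66 for KCNT1, -0.50 for CACNA1A, -0.44 for CACNA2D3 and -0.28 for SCN8A. Those of KCNMA1, CACNA1D, CACNA1S and CACNA1A held with each of 12 libraries left out in turn. That of CACNA2D3 was lost without slick replicate 6 of 48 hpf (adjusted p = 0.0728), that of KCNT1 with 10 of the 12 left out (adjusted p up to 0.138) and that of SCN8A with 7 (adjusted p up to 0.134). For source the interaction of CACNA1D was -0.74 and held with each library left out, but not with the lines of a gene summed.

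Groups of 3 libraries are too small for a test of single outlying values, and no file or sample was left out of the comparisons.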

How the results depend on the processing

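Counts of called genes depended on the tool, on how the lines of a gene were joined, on the low-count filter and on which samples entered. DESeq2 gave 0 in slick at 24 hpf, 2 in slick and 0 in source at 48 hpf, 11 in slick at 96 hpf and 2 for slick against source at 96 hpf, where edgeR gave 1, 6, 1, 17 and 9, and it gave 0 for the source effect at 96 against 48 hpf (edgeR 1). Its counts of 0 rest on few genes. It gave an adjusted p for only 5 in slick at 24 hpf, 5 in source at 48 hpf and 4 for the source effect at 96 against 48 hpf. Summing the lines of a gene gave 0 in slick at 24 hpf, 0 in source at 96 hpf, 4 for the slick effect at 48 against 24 hpf (3 of them higher) and 0 for the source effect at 96 against 48 hpf. Without the low-count filter there were 2 in source at 48 hpf, 2 for the slick effect at 48 against 24 hpf and 1 for that of source. With all 32 deposited samples there were 3 in source at 48 hpf and 2 for the slick effect at 48 against 24 hpf, and a single fit over all stages gave 0 in slick at 24 hpf. Counts over all genes moved as well. With lines summed, 4 were higher and 2 lower in slick at 24 hpf, against 24 and 21 in the main fit. In source at 96 hpf these were 7 and 3, against 44 and 50. For the slick effect at 48 against 24 hpf they were 15 and 18, against 17 and 44. DESeq2 called 521 higher and 517 lower in slick at 96 hpf, where edgeR called 925 and 882. The cause of these differences was not tested.

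With 1 library left out, calls against control ranged from 0 to 1, 4 to 6 and 13 to 16 in slick at 24, 48 and 96 hpf, and from 0 to 0, 1 to 2 and 0 to 1 in source. Slick against source ranged from 1 to 1, 0 to 1 and 3 to 7. Controls ranged from 48 to 54 and from 81 to 83 in the successive steps. The slick effect ranged from 1 to 2 and from 5 to 10, and that of source from 0 to 0 and from 1 to 1. Without slick replicate 4 of 48 hpf, which stood apart, 6 were called in slick at 48 hpf, 4 higher and 2 lower. The lowest counts came without source replicate 16 for slick against source at 96 hpf (3, against 9; 5 when slick replicate 8 or source replicate 18 was dropped) and without slick replicate 9 of 96 hpf for the slick effect at 96 against 48 hpf (5, against 8). Source at 48 hpf had 2 calls without control replicate 8-9 or source replicate 13, and slick against source at 48 hpf had 1 without slick replicate 4.

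Scaling by relative log expression ended 1 single result and left 133 as they were. Summing lines ended 7 and left 127, and DESeq2 ended 20 and left 89 of those with an adjusted p. Over all fits with 1 library left out, 80 were ended and 784 left. These counts take in results that were not called, which could not be ended. No single result reversed under any alternative run. At 24 hpf slick and control share replicate numbers. With the replicate block 1 gene was called, as without it, but same-numbered libraries correlated by only 0.049, 0.00076 and 0.025, so the numbers do not show pairing. A block at 48 hpf was not run, since replicates 4 to 7 of the controls had been summed in pairs. Depth limits genes near the level of 3 counts, 0.671 to 1.64 CPM.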
